A study of Mus musculus with 16 samples.

Results

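The genes described here are the interleukins, the tumour necrosis factor (TNF) superfamily and their receptors in mouse hepatic stellate cells (HSCs), the perivascular, retinoid-storing cells of the liver that become scar-forming cells after injury. Members were the rows whose gene symbol begins with Il and a digit, with Tnfsf or with Tnfrsf, or is Tnf itself. They were 60 of 6515 rows and named 58 genes: 56 of 5716 rows for quiescent HSCs (qHSCs), 1 of 231 for GFP-high and 3 of 568 for GFP-intermediate activated HSCs (aHSCs). The choice by symbol leaves out relatives that carry other names, such as the lymphotoxins and Fas, which are described as a separate list.

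The 6 qHSC samples came from 3 uninjured adult animals. In their WT1CreERT2/+;Ai14 line a tamoxifen-inducible Cre is expressed from the WT1 locus, and a dose at E10.5 switches on a red reporter in embryonic mesothelial cells and their descendants. From each animal a lineage label-positive and a lineage label-negative fraction was sorted after density centrifugation, so the label-negative fraction was set only by the absence of the label. The sample labels name males, but the study's methods name female animals for this isolation. The 10 aHSC samples came from 6 male animals on a C57/Bl6 background, injured with carbon tetrachloride for 8 weeks from young adulthood. All of these carried PDGFRbCre, which is constitutive, the Ai14 reporter and 1 WT1 allele that expresses GFP. In the controls the other WT1 allele was wild type (WT1_+_GFP), and in the WT1-deleted animals it was floxed (WT1_fl_GFP). There were 3 control and 3 deleted samples of GFP-high cells, and 2 and 2 of the GFP-intermediate cells that the labels call low, of which 1 control sample was pooled from 2 animals. Both aHSC fractions share animals.

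Each value is the authors' FPKM, fragments counted per kilobase of transcript and scaled for library size, given once per group with its samples combined. There is therefore no spread between animals, no test and no standard error for any value below, and the depth behind it is unknown. Named rows are those of the authors' differential expression comparisons, so a gene with a row was chosen for differing. The deletion tables also hold loci without a gene name, and name more genes than the study's text counts as altered by the deletion, so a row there is a weaker mark than a gene the study describes. A family member without a row may have been unchanged or not tested. Differences are given as the log2 ratio of the FPKM values within 1 table, and levels were not compared between tables, which were normalised separately. Fewer cells of a type and less RNA per cell cannot be told apart in these bulk samples.

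The labelled cell type was compared with its markers. Of 12 genes typical of HSCs, 6 had a row in qHSCs, 4 of them higher in label-negative cells and 2, Hgf and Rgs5, in label-positive cells. Lrat, Reln and Des were among those without a row, which may mean unchanged or not tested and gives no level. Pdgfrb stood at only 0.905 FPKM in label-negative cells against 0.370 in label-positive cells, while Dcn, which encodes the matrix protein decorin, stood at 109 and 49.0. All 16 genes typical of lymphocytes were higher in label-negative cells, with a summed FPKM of 1675 against 59.5. All 10 genes typical of sinusoidal endothelial cells were higher in label-positive cells, with a summed FPKM of 9645 against 3612. These lists differed between the same fractions as the members described below, and their part in the results was not tested.

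Interleukins are small secreted proteins through which immune and tissue cells act on each other. Most of their receptors are built from a chain that binds 1 ligand and a chain shared by several, and they signal through JAK kinases and STAT factors. Receptors of the IL-1 and IL-17 families act instead through adaptor proteins on NF-kB. TNF superfamily ligands are trimeric and often stay on the cell surface, and their receptors recruit TRAF adaptors or, where they carry a death domain, the machinery of apoptosis. In liver, stellate cells both answer to such signals, among them IL-1, IL-6, IL-13 and TNF, and release some of their own.

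In qHSCs 42 of the 56 members (75%) were higher in label-negative cells, and 14 were higher in label-positive cells. Among all 5716 rows 49.6% were higher in label-negative cells. The median log2 ratio, label-positive over label-negative, was -2.36 for the members and 0.59 for all rows. As rows were called for differing, none had an absolute log2 ratio below 0.548. The median of all rows lies at the edge of that gap. Its sign rests on the small excess of rows higher in label-positive cells, 2883 against 2833, and it is not the difference of a typical row. A difference of more than 2-fold was present in 52 members (92.9%), against 81.2% of all rows. Il24 among the members, and 132 of all rows, had a fraction at 0 FPKM and were counted as past 2-fold. The differences were unlike in size in the 2 directions, among the members and among all rows. Members higher in label-positive cells had log2 ratios between 0.69 and 1.91, with a median of 1.20, beside 1.31 for all rows higher in that fraction. Those higher in label-negative cells reached -5.94, with a median of -3.30, beside -2.10 for all rows of that direction, and 41 of these 42 were past 2-fold.

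Some of the small values need care. In 6 members, namely Il2, Il12b, Il13, Il17d, Il24 and Tnfrsf8, both fractions were below 1 FPKM. With an FPKM of at least 1 asked of the higher fraction, 50 members were left and 36 of them (72%) were higher in label-negative cells, beside 47.1% of the 5084 rows left.

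**Figure D1:**
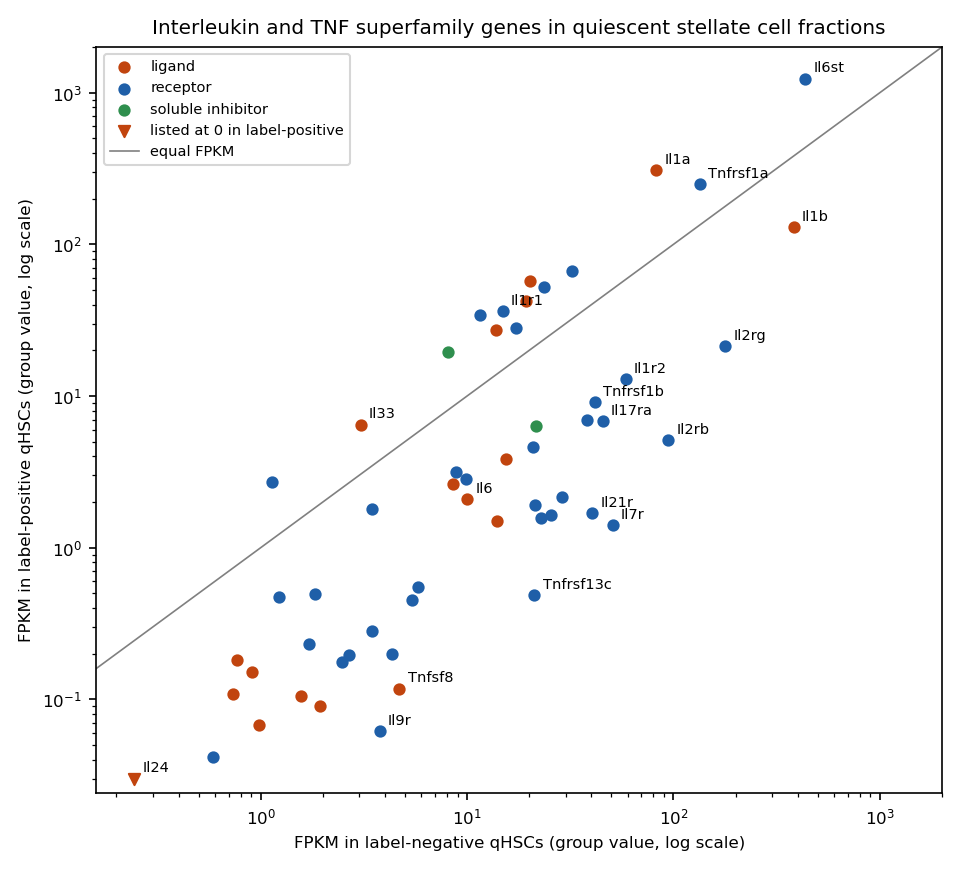
Group FPKM of the 56 members in label-negative (horizontal) and label-positive (vertical) qHSCs, both on log scales, coloured by class; each point is 1 gene, with its samples combined and no error bar. Most points lie below the line of equal FPKM, while Il6st (1238 FPKM), Il1a (308) and Tnfrsf1a (249), the members with the highest label-positive levels, lie above it.

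In the IL-1 family, near relatives differed in opposite directions. Il1a and Il1b encode IL-1 alpha and IL-1 beta, which bind the same receptor. Il1a stood at 82.1 FPKM in label-negative cells against 308 in label-positive cells, a log2 ratio of 1.91 and the largest of any member in that direction. Il1b stood at 382 and 130 (log2 ratio -1.56). The order of the pair thus differed between the fractions, Il1b being 4.65 times as high as Il1a in label-negative cells and Il1a 2.38 times as high as Il1b in label-positive cells.

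Il1a and Il1b are neighbours on chromosome 2 with no other protein-coding gene between them in RefSeq. Their promoters are shown because neighbouring genes of the same origin differed in opposite directions. Each line gives the 250 bases before the start of transcription in RefSeq (GRCm38.p6), read 5′ to 3′ on the gene's own strand. Capitals mark a TATA box (TATAAA) and an AP-1 motif (TGACTCA or TGAGTCA, which are the same site read on either strand).
Il1a (chr2:129309973-129310222, minus strand): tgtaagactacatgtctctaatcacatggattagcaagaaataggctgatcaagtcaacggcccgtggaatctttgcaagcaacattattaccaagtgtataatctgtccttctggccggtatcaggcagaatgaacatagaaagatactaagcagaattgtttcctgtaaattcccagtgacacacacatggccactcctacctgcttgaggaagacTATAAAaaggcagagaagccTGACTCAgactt
Il1b (chr2:129371140-129371389, minus strand): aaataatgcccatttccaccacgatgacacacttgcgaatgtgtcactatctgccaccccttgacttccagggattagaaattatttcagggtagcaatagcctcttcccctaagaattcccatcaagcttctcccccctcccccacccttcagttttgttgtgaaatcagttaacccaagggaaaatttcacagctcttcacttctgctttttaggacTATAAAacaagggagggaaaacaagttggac
Both hold a TATA box at nearly the same place, beginning 32 bases before the start of Il1a and 31 before that of Il1b. An AP-1 motif at -12 to -6 is present in the Il1a window and absent from the Il1b window. A gene on the opposite strand overlaps exons of either, as is also so for Il3ra, Il6ra, Il17rb, Il18bp and Tnfrsf18, and whether the counting used strand was not stated.

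The IL-1 receptors showed the same kind of split. Il1r1, the signalling receptor, stood at 14.9 FPKM in label-negative cells against 36.2 in label-positive cells (log2 ratio 1.28). Il1r2, a decoy that binds IL-1 without signalling, stood at 58.6 and 12.9 (-2.18). Decoy exceeded signalling receptor 3.95 times in label-negative cells, and in label-positive cells the signalling receptor exceeded the decoy 2.81 times. Il1rn, the soluble receptor antagonist, stood at 21.5 and 6.33 (-1.76) and so kept close to Il1b, which was 17.8 times as high in label-negative cells against 20.5 times as high in label-positive cells.

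The receptor genes of this family lie side by side on chromosome 1 in the order Il1r2, Il1r1, Il1rl2, Il1rl1, Il18r1 and Il18rap. No other protein-coding RefSeq gene lies between them. Of these 6 neighbours, Il1r1 was the 1 that was higher in label-positive cells. Il18r1 and Il18rap, the 2 chains of the IL-18 receptor, were nearly alike in their difference, at 22.8 and 1.56 FPKM (-3.87) and at 28.9 and 2.17 FPKM (-3.74). Il18bp, a soluble protein that captures IL-18, went the other way, with 8.12 FPKM in label-negative cells against 19.5 in label-positive cells (1.26). Il18 itself has no row.

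Il33 encodes an alarmin that is stored in the nucleus and released from damaged cells, and Il1rl1 encodes its receptor. Il33 stood at 3.05 FPKM in label-negative cells against 6.48 in label-positive cells (1.09), whereas Il1rl1 stood at 2.67 and 0.195 (-3.77). Il1f9, which encodes IL-36 gamma, was at 15.4 and 3.84 (-2.00), and its receptor Il1rl2 was at 1.22 and 0.474 (-1.37). In all, 4 of the 12 members of the IL-1 family were higher in label-positive cells.

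Of the 11 members of the common gamma chain and IL-4/IL-13 group, 9 were higher in label-negative cells. Il2rg, the gamma chain that receptors for several lymphocyte growth factors share, stood at 177 FPKM in label-negative cells against 21.4 in label-positive cells (-3.05). Il2rb, the signalling chain for IL-2 and IL-15, stood at 94.5 and 5.10 (-4.21). Il7r, the receptor chain on which T cell survival depends, stood at 50.7 and 1.41 (-5.17). Among the partner chains, the order from the smallest to the largest difference was Il2ra at 5.78 and 0.552 (-3.39), Il21r at 40.3 and 1.68 (-4.58) and Il9r at 3.77 and 0.0616 FPKM (-5.94). That of Il9r was the largest finite difference of any member. An exon of Il2rg overlaps one of the predicted gene Gm20489 on the same strand, so reads of the overlap could belong to either.

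The ligands of this group were low. Il4, which drives type 2 immune responses, was at 8.52 FPKM in label-negative cells against 2.63 in label-positive cells (-1.70). Its chromosome 11 neighbour Il13, a cytokine known to promote liver fibrosis, was at 0.983 and 0.0682 (-3.85). Il2 was at 0.908 and 0.150 (-2.59). Both IL-13 receptor chains were higher in label-positive cells, in contrast to the other receptors of the group. Il13ra1, which pairs with the IL-4 receptor alpha chain to signal, stood at 32.4 and 66.7 (1.04). Il13ra2, which binds IL-13 tightly and is best known as a decoy, stood at 23.6 and 52.6 (1.16). Il4ra has no row. In the common beta chain group, Il3ra, the IL-3 receptor alpha chain, stood at 17.3 and 27.9 (0.69), the smallest difference of any member, and Il5ra, its counterpart for IL-5, at 1.71 and 0.233 (-2.88).

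Within the IL-6 family the shared chain and the specific chain parted. Il6st encodes gp130, through which IL-6, IL-11, LIF and oncostatin M all signal. It stood at 436 FPKM in label-negative cells against 1238 in label-positive cells (1.51), and ranked 13th by label-positive level among the 5716 rows. Il6ra, the chain that binds IL-6 itself, stood at 20.8 and 4.63 (-2.17). The shared chain was 21.0 times as high as the IL-6 chain in label-negative cells against 268 times as high in label-positive cells. Il6 was at 9.997 and 2.10 FPKM (-2.25).

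The Il6 promoter is shown because NF-kB, on which IL-1 and TNF receptors act, is a known regulator of this gene. Capitals mark an AP-1 motif at -249 to -243 and an NF-kB motif at -44 to -35.
Il6 (chr5:30012864-30013113, plus strand): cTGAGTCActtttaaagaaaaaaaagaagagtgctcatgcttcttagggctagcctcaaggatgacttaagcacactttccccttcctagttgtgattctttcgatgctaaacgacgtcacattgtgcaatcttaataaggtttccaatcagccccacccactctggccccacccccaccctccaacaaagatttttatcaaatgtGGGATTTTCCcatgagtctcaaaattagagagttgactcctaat

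Members of the IL-12 and IL-10 families were higher in label-negative cells throughout, 2 of 2 in each. Il12rb1, a receptor chain for IL-12 and IL-23, stood at 3.47 and 0.280 FPKM (-3.63), and Il12b, the subunit those cytokines share, at 0.738 and 0.109 (-2.76). Il10ra, which binds the anti-inflammatory IL-10, stood at 38.3 and 6.92 (-2.47). Il24 was at 0.244 in label-negative cells and listed at 0 in label-positive cells, so no ratio is given.

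The IL-17 receptors divided by chain. Il17ra, the chain common to the family's receptors, stood at 45.3 FPKM in label-negative cells against 6.84 in label-positive cells (-2.73). Il17rc, its partner for IL-17A and IL-17F, stood at 11.5 and 34.4 (1.58). Il17ra was 3.94 times as high as Il17rc in label-negative cells but 0.199 times as high in label-positive cells. Il17rd, an orphan-like relative that dampens fibroblast growth factor signalling, was at 1.14 and 2.70 (1.25). Il17rb, the IL-25 receptor chain, was at 1.83 and 0.496 (-1.88). The ligands Il17a, at 1.56 and 0.106 (-3.88), and Il17d, at 0.769 and 0.181 (-2.08), were low.

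**Figure D2:**
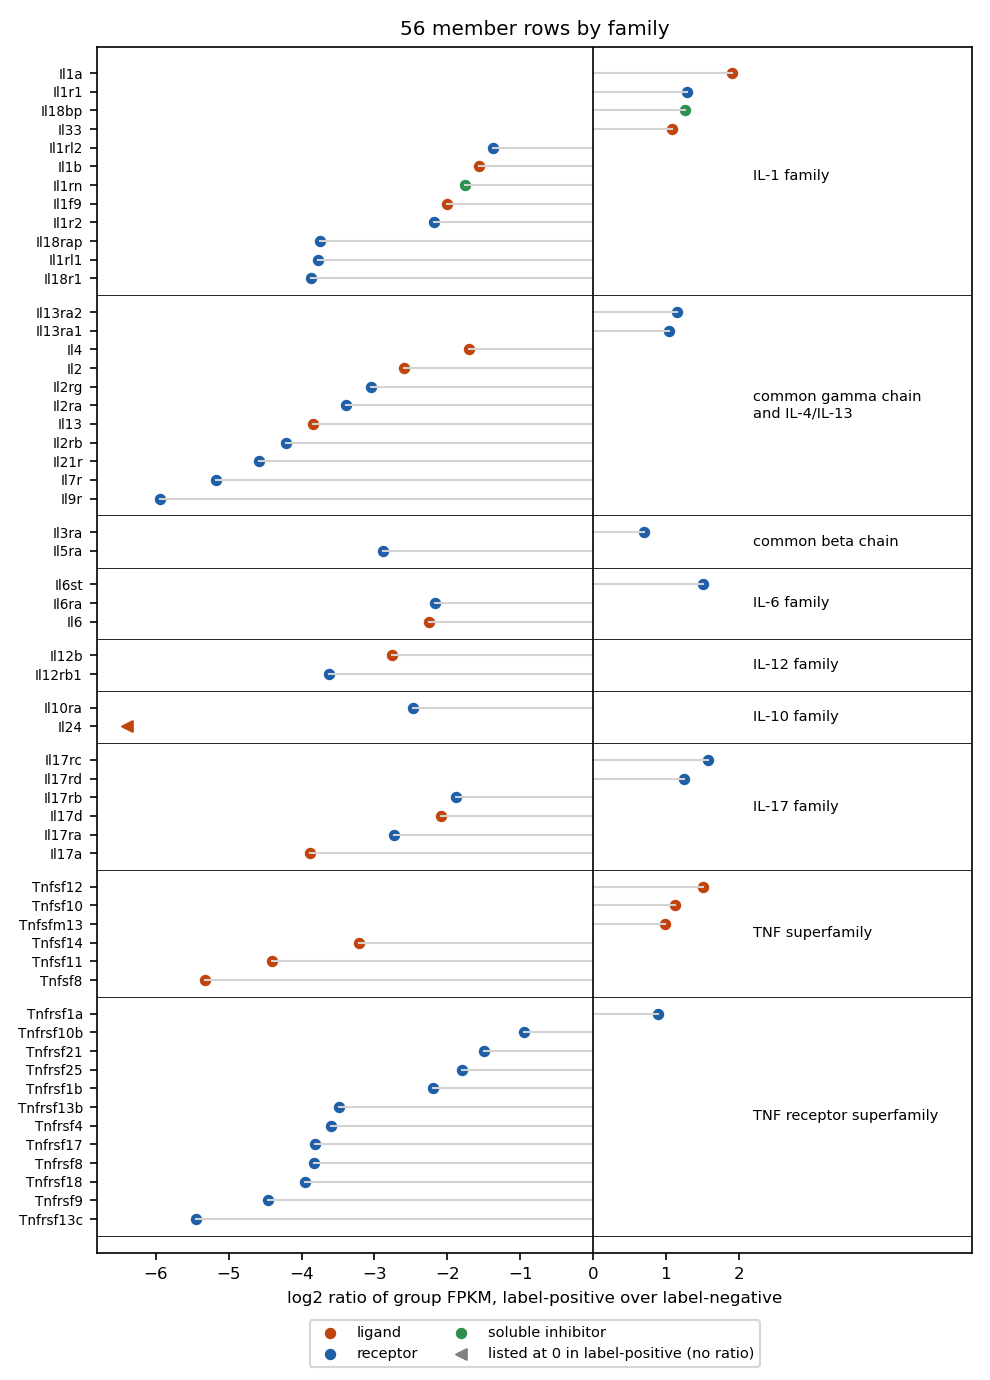
Log2 ratio of the group FPKM (label-positive over label-negative, horizontal) of the 56 members, 1 line per gene, grouped by family; there are no error bars because each group has 1 value, and the arrowhead marks Il24, listed at 0 in label-positive cells. Every family with at least 3 members has points on both sides of 0, and the longest lines point to label-negative cells.

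The TNF superfamily ligands were evenly divided, 3 and 3. Tnfsf10, which encodes the death ligand TRAIL, stood at 19.2 FPKM in label-negative cells against 42.1 in label-positive cells (1.13). Tnfsf12 encodes TWEAK, a ligand known in tissue repair, and stood at 20.1 and 57.2 (1.51). Tnfsfm13, at 13.7 and 27.3 (0.99), is a read-through transcript of Tnfsf12 and its neighbour Tnfsf13 and shares exons with both on the same strand. Its value and that of Tnfsf12 may hold the same reads and are not independent. The 3 ligands higher in label-negative cells are known from lymphocytes among other cells. Tnfsf8, the CD30 ligand, stood at 4.70 and 0.118 (-5.32). Tnfsf11, which encodes RANKL, stood at 1.93 and 0.0910 (-4.40), and Tnfsf14, which encodes LIGHT, at 13.9 and 1.50 (-3.21). Tnf has no row in the qHSC table.

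Of 12 TNF receptors, 11 were higher in label-negative cells, with a median log2 ratio of -3.54 for the 12. The exception was Tnfrsf1a, the death domain receptor for TNF that most tissues express, which stood at 134 FPKM in label-negative cells against 249 in label-positive cells (0.89). Tnfrsf1b, the other TNF receptor and one largely of immune and endothelial cells, stood at 41.7 and 9.08 (-2.20). Tnfrsf1a was thus 3.22 times as high as Tnfrsf1b in label-negative cells and 27.5 times as high in label-positive cells.

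The promoters of this pair, and that of Tnfrsf9, are shown because the pair binds 1 ligand and differed in opposite directions, and because the Tnfrsf9 window held an NF-kB, a STAT and an AP-1 motif together. Capitals mark the STAT motif (TTCNNNGAA) in the pair and all 3 motifs in Tnfrsf9, of which a second RefSeq window, for another start, held none.
Tnfrsf1a (chr6:125349473-125349722, plus strand): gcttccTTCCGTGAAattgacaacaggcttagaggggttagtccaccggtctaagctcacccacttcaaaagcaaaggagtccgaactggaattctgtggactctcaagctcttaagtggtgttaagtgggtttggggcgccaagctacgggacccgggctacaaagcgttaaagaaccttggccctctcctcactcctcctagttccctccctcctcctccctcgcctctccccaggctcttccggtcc
Tnfrsf1b (chr4:145246871-145247120, minus strand): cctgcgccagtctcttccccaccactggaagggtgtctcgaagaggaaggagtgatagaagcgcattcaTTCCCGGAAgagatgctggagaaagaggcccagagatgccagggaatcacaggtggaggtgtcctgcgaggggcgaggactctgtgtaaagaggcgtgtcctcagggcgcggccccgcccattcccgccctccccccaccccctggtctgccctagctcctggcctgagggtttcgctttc
Tnfrsf9 (chr4:150927749-150927998, plus strand): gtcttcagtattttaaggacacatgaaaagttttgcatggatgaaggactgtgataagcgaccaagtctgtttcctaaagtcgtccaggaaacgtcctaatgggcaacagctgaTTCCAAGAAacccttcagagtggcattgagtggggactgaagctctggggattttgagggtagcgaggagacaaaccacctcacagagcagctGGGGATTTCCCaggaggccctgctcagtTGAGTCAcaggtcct
Either TNF receptor window held a STAT motif, at -244 to -236 for Tnfrsf1a and at -181 to -173 for Tnfrsf1b.

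The costimulatory receptors of T cells had large differences. Tnfrsf9, or 4-1BB, stood at 4.34 FPKM in label-negative cells against 0.198 in label-positive cells (-4.45). Tnfrsf4, or OX40, stood at 5.42 and 0.450 (-3.59), and its chromosome 4 neighbour Tnfrsf18, or GITR, at 25.5 and 1.64 (-3.96). Tnfrsf8, or CD30, was at 0.591 and 0.0416 (-3.83). The receptors of B cell survival factors were alike in this. Tnfrsf13c, the BAFF receptor, stood at 21.2 and 0.485 (-5.45), Tnfrsf13b, or TACI, at 21.4 and 1.91 (-3.49), and Tnfrsf17, or BCMA, at 2.47 and 0.176 (-3.82).

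The death domain receptors other than Tnfrsf1a had smaller differences. Tnfrsf10b, the receptor for TRAIL, stood at 3.46 and 1.79 FPKM (-0.95) and was the 1 member higher in label-negative cells that did not reach 2-fold. Tnfrsf21, or death receptor 6, stood at 8.88 and 3.14 (-1.50), and Tnfrsf25, a receptor mainly of T cells, at 9.88 and 2.85 (-1.79).

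To see whether a ligand and its receptor were higher in the same fraction, 44 textbook ligand and receptor pairs were listed after the values had been seen, and 20 of them had rows for both genes. Both genes were higher in label-negative cells in 10 pairs. As 75% of the members were higher in that fraction, many such pairs follow from that share alone. The count therefore does not show that ligand and receptor go together. Both were higher in label-positive cells in 1 pair, Il1a with Il1r1. In 6 pairs the ligand was higher in label-negative cells against the receptor in label-positive cells, among them Il1b with Il1r1, Il6 with Il6st, Il17a with Il17rc and Il13 with both of its receptor chains. In 3 pairs the reverse was seen, namely Il1a with Il1r2, Il33 with Il1rl1 and Tnfsf10 with Tnfrsf10b. Pairs share genes and are not independent, and transcript levels do not show which cells meet the ligand.

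On the chromosomes, 16 of the 56 members lay in 6 runs of 2 or more with at most 2 other protein-coding genes between neighbours. In 4 runs all members were higher in the same fraction, and the 2 mixed runs were the IL-1 receptors and the Il1a and Il1b pair. Of the 4, Tnfsf12 with Tnfsfm13 may hold the same reads. The rest were Il4 with Il13, Tnfrsf1b with Tnfrsf8 and Tnfrsf4 with Tnfrsf18. All of these were higher in label-negative cells, as were 75% of the members, so agreement within them says little.

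Promoter windows were in RefSeq for 49 of the 56 members, 59 windows in all, and motifs were searched on both strands in the 250 bases before the start. An NF-kB motif was in 6 windows (10.2%), beside 7.25% of all 32851 windows. The STAT motif was in 9 (15.3%), beside 7.02%. The AP-1 motif was in 9 (15.3%), beside 4.46%, and the TATA box in 11 (18.6%), beside 12.4%. The AP-1 motif was held by Il1a, Il1rn, Il5ra, Il6, Il13ra2, Il17rb, Tnfsf14, Tnfrsf8 and Tnfrsf9, of which Il1a and Il13ra2 were higher in label-positive cells. These are counts of letters and not of binding.

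Relatives outside the symbol rule were taken from a list. Of 15 TNF superfamily genes with other symbols, 10 had a row and 8 were higher in label-negative cells, with a median log2 ratio of -3.44. Ltb, a lymphotoxin that organises lymphoid tissue, stood at 151 FPKM in label-negative cells against 7.81 in label-positive cells (-4.27). Fasl, the killer cell death ligand, was at 18.3 and 1.02 (-4.16), and Cd40lg, the helper T cell ligand, at 16.5 and 1.20 (-3.78). Fas and Eda2r were higher in label-positive cells, Fas with 28.0 and 48.7 FPKM (0.80).

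A further list held 25 cytokines and receptors related to the interleukins, some but not all of which share receptor chains with them. Of these 14 had a row and 10 were higher in label-negative cells. Ifng, the interferon of T and NK cells, stood at 83.4 and 6.49 FPKM (-3.68), Clcf1, a cytokine acting through gp130, at 25.2 and 2.35 (-3.42), and Osm, or oncostatin M, at 29.2 and 4.66 (-2.65). The 4 higher in label-positive cells were Csf1 and 3 receptors whose signalling runs through gp130: Osmr with 12.0 and 35.0 FPKM (1.55), Lifr with 78.1 and 208 (1.41) and Cntfr with 45.7 and 117 (1.36). They were higher in the same fraction as Il6st, while the ligands Il6, Osm, Clcf1 and Lif were higher in the other.

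Genes that act downstream of the receptors were divided unevenly. Of 27 TNF receptor adaptors and apoptosis genes 12 had a row, 10 of them higher in label-negative cells, and the largest differences were those of the adaptors Traf1 at 50.5 and 6.54 FPKM (-2.95), Traf4 at 23.0 and 3.41 (-2.76) and Traf5 at 27.4 and 4.85 (-2.50). Of 15 NF-kB genes 3 had a row, all higher in label-negative cells, namely Rel with 60.8 and 20.2 FPKM, Ikbkb with 75.2 and 34.1 and Nfkbie with 23.6 and 13.8. Of 17 IL-1 and Toll adaptors and inflammasome genes 6 had a row and 5 were higher in label-negative cells, the inflammasome genes Nlrp3 (22.0 and 6.07 FPKM), Pycard (45.7 and 12.8) and Aim2 (46.8 and 13.2) among them.

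JAK-STAT genes were divided. Of 25 listed, 7 had a row and 4 were higher in label-positive cells. Socs3, the feedback inhibitor that gp130 signalling induces, stood at 162 FPKM in label-negative cells against 454 in label-positive cells (1.49). Stat4, the factor of the IL-12 response, stood at 28.3 and 1.37 (-4.37), and Ptpn6, a phosphatase of blood cells, at 318 and 45.3 (-2.81).

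The members' ratios were then set beside those of genes typical of cell types the fractions could hold. The 16 lymphocyte genes had log2 ratios from -5.92 to -3.63, and 15 of the 42 members higher in label-negative cells lay in that range. Trac, the T cell receptor alpha constant region, stood at 227 FPKM in label-negative cells against 6.79 in label-positive cells, the killer cell gene Nkg7 at 254 and 9.71, and the B cell gene Cd79a at 184 and 3.51. The 9 of 11 granulocyte genes with a row ranged from -6.25, for Mpo at 6.18 and 0.0812 FPKM, to -1.99. That range took in 33 of the 42, but its lower end was set by Mpo alone. The other granulocyte genes with a row lay between -3.00, for Retnlg, and -1.99, for Lcn2. Members within that narrower range were not counted. The summed FPKM of the granulocyte genes was 2342 against 468. S100a9, S100a8 and Retnlg, the highest of them, stood at 1147, 757 and 243 FPKM in label-negative cells against 236, 158 and 30.4 in label-positive cells. Of 8 dendritic cell genes 7 had a row and 6 were higher in label-negative cells, with a summed FPKM of 261 against 83.0. Ccr7, their highest, stood at 138 and 2.22 FPKM, Siglech at 43.8 and 8.69 and Zbtb46, the exception, at 25.9 and 61.7. The ratio of Ccr7, -5.95, was set apart from the other dendritic cell genes, of which the lowest was Cd209a at -2.65. Of 7 mast cell and basophil genes 6 had a row and 5 were higher in label-negative cells. Mcpt4 stood at 11.6 and 0.202 FPKM and Cpa3 at 8.65 and 0.313, whereas Kit was at 70.6 and 139.

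Sinusoidal endothelial, hepatocyte and mesothelial genes with a row were higher in label-positive cells, whereas macrophage and HSC genes were divided. The 10 sinusoidal endothelial genes had log2 ratios from 1.28 to 1.86, a range that held 3 of the 14 members higher in that fraction. Clec4g stood at 1022.5 FPKM in label-negative cells against 2787 in label-positive cells, Fcgr2b at 750.4 and 1901 and Stab1 at 437 and 1093. All 10 hepatocyte genes were higher in label-positive cells, with a summed FPKM of 1608 against 190.2. Fabp1 stood at 24.1 and 478, Car3 at 13.4 and 337 and Alb, or albumin, at 107 and 302. All 7 mesothelial genes with a row, of 8, were higher too, with a summed FPKM of 52.0 against 17.6 and a range from 0.83 to 2.0 that held 13 of the 14 members. Krt18 stood at 3.95 and 15.8, Krt8 at 4.80 and 13.7 and Gpm6a at 2.81 and 7.57. The study's text names Gpm6a, Msln, Upk1b and Upk3b as mesothelial signature genes, but does not name the keratins Krt8 and Krt18 there. Macrophage genes were mixed, 8 of the 11 with a row being higher in label-positive cells. Among them Mrc1 stood at 268 and 791 and the Kupffer cell gene Clec4f at 34.2 and 166, while Lyz2, which granulocytes share, stood at 1283 and 289. Of the HSC genes with a row Dcn, Col1a1 (7.28 and 2.63 FPKM), Pdgfrb and Ngfr (0.488 and 0.0344) were higher in label-negative cells. Hgf (17.0 and 44.1) and Rgs5 (0.750 and 3.29) were higher in label-positive cells. Wide ranges held many members whatever the cell type. Those of the dendritic cell, mast cell, granulocyte and HSC genes took in 41, 40, 33 and 28 of the 42 members higher in label-negative cells. Those of the macrophage and HSC genes held all 14 of the others. The share of all rows in each range was not counted, so these counts do not single out a cell type. The part of any of these cell types in the members' values was not tested.

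**Figure D3:**
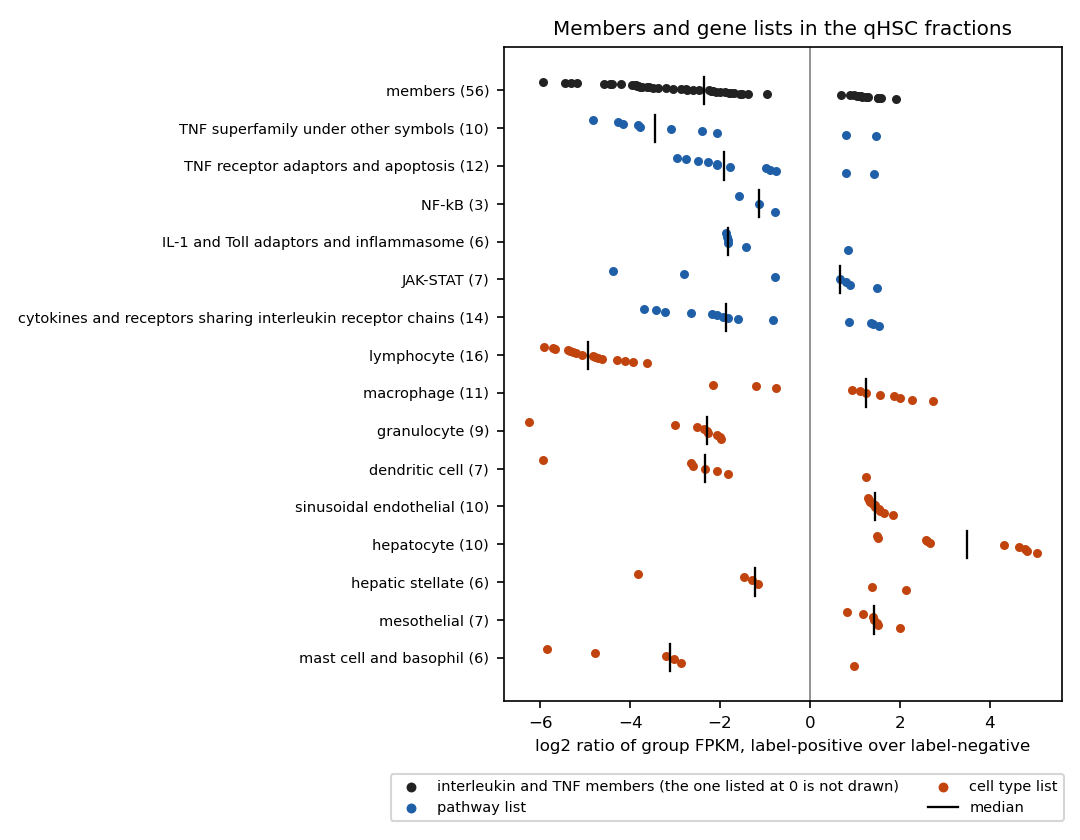
Log2 ratio of the group FPKM (label-positive over label-negative, horizontal) for the 56 members and for the genes of each pathway and cell type list with a row in qHSCs, 1 point per gene and the number of genes in brackets; the vertical bar is the median. The members lie on both sides of 0 with their median at -2.36, the lymphocyte genes all lie at or below -3.63 and the sinusoidal endothelial genes all lie at or above 1.28.

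The second question was which of these genes differed when WT1, a transcription factor of mesothelial and some activated stellate cells, was deleted. Very few members had rows. In GFP-high aHSCs the table held 231 rows, 108 of them loci without a gene name, and 45% of the rows were lower in WT1-deleted cells. Of the 123 rows with a gene name 28 were lower (22.8%). All rows (100%) differed by more than 2-fold, counting 118 that had a group at 0 FPKM and so no finite ratio. Its 1 member was Il1f9, which stood at 4.34 FPKM in control cells against 1.41 in WT1-deleted cells (log2 ratio, WT1-deleted over control, -1.63).

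In GFP-intermediate aHSCs the table held 568 rows, 149 of them without a gene name, and 67.3% of the rows were lower in WT1-deleted cells. Of the 419 rows with a gene name 263 were lower (62.8%). Again all rows (100%) differed by more than 2-fold, counting 185 that had a group at 0 FPKM. Il1a stood at 59.0 FPKM in control cells against 13.3 in WT1-deleted cells (-2.15). Tnf, the founding cytokine of its superfamily, stood at 18.5 and 7.40 (-1.32). Il1rapl1, a synaptic relative of the IL-1 receptor accessory protein, stood at 0.856 and 3.23 (1.91). With 3 members, a share of 2 lower says nothing beyond these backgrounds.

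Downstream genes were sparse too. In GFP-high cells Irak1, a kinase of the IL-1 receptor pathway, stood at 52.2 FPKM in control cells against 120.3 in WT1-deleted cells, in a row that also names 2 microRNA genes. In GFP-intermediate cells Csf3, the granulocyte growth factor, stood at 1.94 and 8.86, Csf1r, the macrophage growth factor receptor, at 269 and 100.2, and a row naming the inflammasome sensor Nlrp1b and a related pseudogene at 2.87 and 0.555.

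Most blood cell genes with a row were lower in the same groups as Il1f9, Il1a and Tnf. These fractions had been sorted for the red Cre reporter and for GFP, and their purity is not known here. In GFP-high cells 6 of 11 granulocyte genes had a row, and the 6 had a summed FPKM of 520 in control cells against 149 in WT1-deleted cells. S100a8, S100a9 and Retnlg stood there at 268, 203 and 31.6 FPKM in control cells against 81.1, 57.4 and 8.49 in WT1-deleted cells. A row naming Trac and many joining segments stood at 10.9 and 213, in the opposite direction. In GFP-intermediate cells 5 granulocyte genes with a row summed to 729 and 219, with S100a8 at 412 and 123, S100a9 at 260 and 84.5 and Retnlg at 39.2 and 8.24. The 7 macrophage rows summed to 2848 and 649, among them a row of C1qb and C1qc at 1463 and 284 and C1qa at 609 and 121. The dendritic cell gene Itgax stood at 54.2 and 18.4, and a row of Clec1b and Clec9a at 42.2 and 14.1. The endothelial genes Stab1 and Cdh5 stood at 120.4 and 30.8 and at 17.9 and 8.09. Car3 stood at 1.97 and 14.2, and the stellate genes Hgf and Rgs5 at 9.45 and 3.35 and at 1.41 and 8.20. Their part in the members' values was not tested.

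**Figure D4:**
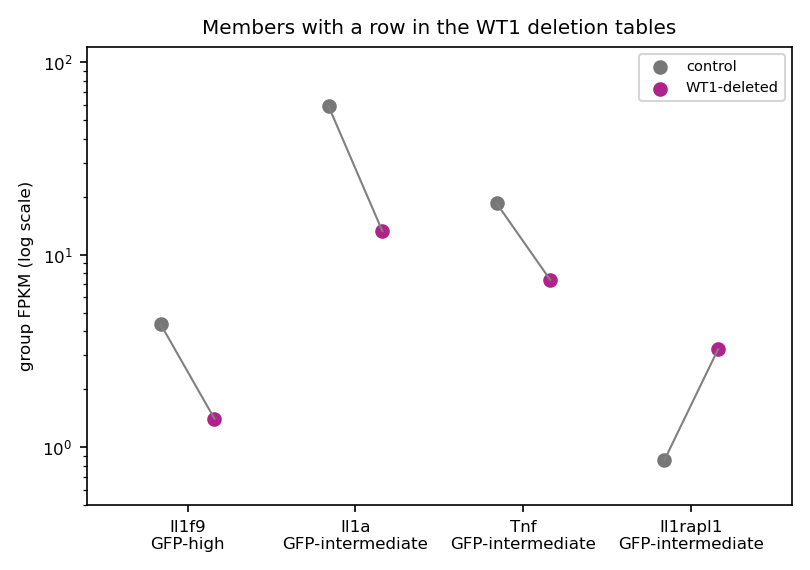
Group FPKM (log scale) of the 4 members with a row in the WT1 deletion tables, in control (grey) and WT1-deleted (purple) cells of the named fraction; each point is 1 group value with its samples combined and no error bar. Il1f9, Il1a and Tnf are lower in WT1-deleted cells and Il1rapl1 is higher, and the fractions were normalised separately, so heights are compared only within a gene.

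Il1f9 and Il1a were thus the members with rows in more than 1 table. Il1f9 was lower in label-positive qHSCs and in WT1-deleted GFP-high cells. Il1a was higher in label-positive qHSCs and lower in WT1-deleted GFP-intermediate cells. RefSeq lists 116 protein-coding genes whose symbols fit the rule, and 58 of them had no row in any table, among them Il10, Il15, Il18, Il34, Tnfrsf11b and Tnfrsf12a. The share of all protein-coding genes without a row was not counted. Whether 58 of 116 is many or few can therefore not be said.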

How the data were processed

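RNA of 16 samples was sequenced by the authors, and reads were mapped with bowtie 2 and Cuffdiff2 was used to call genes below an adjusted p of 0.05, per the study's methods. The submitters' processing notes name TopHat2 2.0.3, Cufflinks 2.0.1, DESeq2 and the builds mm9 and mm10, with no roles. The deposited values are FPKM, 1 per group and called gene, with samples combined by the authors. The deposited comparison tables also hold the authors' fold changes and p-values, and none of these was used. Values per sample and counts were not analysed here, so depth is unknown and no test was made.

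Members were found by symbol, and log2 ratios of FPKM were computed without a pseudocount. All members were named with their values, and from each list the 3 genes with the largest difference on log2(FPKM + 1) or, for cell types, the 3 with the highest FPKM, with others added after their values were seen. The members and lists were chosen with earlier results of these data known. Motifs and pairs were chosen after values were seen. For the NF-kB motif the standard decamer was searched. Promoters, gene order and family size came from RefSeq (GRCm38.p6), and overlaps from GENCODE vM21. Gene order was that of protein-coding genes only. All 58 members were matched. The code ran in Python 3.11.15 (pandas 2.3.3, matplotlib 3.10.9, numpy 2.4.6) and was tested on simulated data. Alternatives were a minimum FPKM of 1 in the higher group, rows naming 1 gene only, pseudocounts of 1 and 0.1, and a fold of 3.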

Additional observations from a re-analysis of the deposited data

How the results depend on the processing

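Alternatives were computed 33 times over 9 results. Every member row names 1 gene, so keeping only rows that name 1 gene could change no result. The members in aHSCs all passed 1 FPKM in their higher group, so that minimum could change nothing there. No count moved by more than 1.5 times, and a median, having no replicate spread to set a change against, was taken as moved when its printed value differed, which 7 did, some of them slightly. The qHSC median of -2.36 was -2.19 with a minimum FPKM of 1 in the higher fraction, -1.46 with a pseudocount of 1 and -2.16 with a pseudocount of 0.1. In GFP-high aHSCs the value of -1.63 was -1.15 and -1.56 with these pseudocounts, and in GFP-intermediate aHSCs the median of -1.32 was -1.22 and -1.31. A pseudocount shrinks ratios of low values by its construction. The number of qHSC members past 2-fold, 52, was 46, 42 and 52 under these 3 settings, and 39 were past 3-fold. In GFP-intermediate aHSCs 2 of 3 members were past 3-fold. No paired analysis was possible because each group has 1 combined value, and for the same reason no sample could be left out in turn. Depth, which sets the precision of the low values, is unknown.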
